A study of Mus musculus with 6 samples.

Results

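The 9 genes described here are induced by transforming growth factor beta (TGF-beta) or hold its signal in check. They are Smad7, Pmepa1, Ldlrad4, Ski, Skil, Tgif1, Inhba, Nox4 and Bhlhe40. They were chosen by gene symbol, and all 9 had a row among the 19865 gene symbols of the count tables. The libraries were made by 3'SAGE-seq, which reads a tag from the 3' end of transcripts. The 6 libraries came from mouse lung fibroblasts of C57BL/6 background that carried a green fluorescent transgene under the Col1a2 promoter. The trSrebf1 group (3 libraries) had been transduced by retrovirus with an active, truncated form of Srebf1c, and the control group (3 libraries) with the vector alone. Both vectors were marked by hLNGFR, a human surface receptor. Recipient C57BL/6 mice had been given 2 mg/kg of bleomycin, which injures the lung and leads to scarring. Cells were placed in the trachea on day 5, and doxycycline, the inducer of trSrebf1, was started on day 7. Living cells with both the reporter and hLNGFR, and without CD45, CD31, EpCAM, CD146 and Ter119, were sorted on day 10, with 10000 cells for each library. The labels give neither the age of the mice nor whether replicate libraries represent different mice or cultures, so the p-values rest on a spread between libraries that could be technical.

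As background, TGF-beta binds a pair of receptor kinases that phosphorylate SMAD2 and SMAD3. These join SMAD4, enter the nucleus and switch on target genes. Some of the targets are brakes. SMAD7 sits on the receptor and recruits ubiquitin ligases to it, the membrane proteins PMEPA1 and LDLRAD4 keep SMAD2 and SMAD3 from the receptor complex, and SKI, SKIL (also called SnoN) and TGIF1 repress SMAD target genes in the nucleus. Other targets carry the response onwards. Inhba encodes the subunit of activin A, a ligand that also signals through SMAD2 and SMAD3, NOX4 makes hydrogen peroxide in myofibroblasts, and BHLHE40 is a repressor that also belongs to the circadian clock. In lung fibrosis TGF-beta is a main driver of the change of fibroblasts into myofibroblasts.

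Library totals ranged from 4151691 to 4688196 counts in the trSrebf1 group and from 3675146 to 4134354 in the control group. Srebf1 itself had 133, 123 and 108 counts in the trSrebf1 libraries, against 32, 20 and 33 in the control libraries, although its last 500 bases share 109 exonic bases with Rai1 on the other strand and its tags may come from the gene, the transgene or both. Ctsd alone took 6.53% to 6.81% of the counts in trSrebf1 libraries and 0.860% to 0.953% in control libraries. The fibroblast markers Col1a1, Col1a2, Col3a1, Dcn and Vim each stood at 2882 CPM or more (tag counts scaled to a common library size) in every library, whereas Pdgfra had 3.23 to 5.58 CPM in trSrebf1 and 8.49 to 13.6 CPM in control libraries and Fap at most 6 counts in any library. The 11 markers on that list summed to between 30801 and 35519.9 CPM in trSrebf1 libraries and between 42597 and 54877 CPM in control libraries, and of 10 tested genes on it 1 was higher and 7 were lower. Of 10194 genes that passed the filter on low counts, 1755 were higher and 1328 lower in trSrebf1 cells at an adjusted p under 0.05 (edgeR quasi-likelihood test, Benjamini-Hochberg adjustment), and the median log2 fold change was -0.01.

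The promoter windows of 3 of the genes are shown, since Nox4 and Ski were among those that fell and Inhba is the ligand gene of the group. RefSeq windows (GRCm38.p6, from 250 bases before to 50 bases after a transcription start) matched 4 of the 9 genes, Inhba, Nox4, Ski and Tgif1. Capitals mark the core SMAD element CAGAC and the SMAD element GGCGC, each on either strand.
Nox4, chr7:87246399-87246698, plus strand: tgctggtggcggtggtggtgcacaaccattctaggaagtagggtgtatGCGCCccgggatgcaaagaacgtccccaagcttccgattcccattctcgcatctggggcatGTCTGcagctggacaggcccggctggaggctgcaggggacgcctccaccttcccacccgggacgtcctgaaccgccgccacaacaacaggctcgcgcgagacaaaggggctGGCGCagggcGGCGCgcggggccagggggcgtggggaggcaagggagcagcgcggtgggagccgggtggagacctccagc
Ski, chr4:155222486-155222785, minus strand: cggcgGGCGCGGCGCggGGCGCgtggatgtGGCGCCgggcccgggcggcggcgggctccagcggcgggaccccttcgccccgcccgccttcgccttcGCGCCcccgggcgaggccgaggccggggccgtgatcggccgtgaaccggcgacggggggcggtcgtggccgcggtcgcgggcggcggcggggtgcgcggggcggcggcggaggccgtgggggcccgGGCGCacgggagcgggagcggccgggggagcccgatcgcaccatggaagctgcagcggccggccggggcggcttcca
Inhba, chr13:16011601-16011900, plus strand: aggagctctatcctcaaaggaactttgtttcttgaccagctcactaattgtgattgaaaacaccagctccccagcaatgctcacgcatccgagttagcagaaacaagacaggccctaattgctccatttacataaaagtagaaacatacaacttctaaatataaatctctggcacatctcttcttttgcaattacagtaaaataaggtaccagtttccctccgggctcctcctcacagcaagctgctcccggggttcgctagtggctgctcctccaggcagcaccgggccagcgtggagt
The Nox4 window held CAGAC once, starting at -141 from the RefSeq start site, and GGCGC in 3 places. This window lies downstream of the gene start given for Nox4 below (87246096), so it does not cover the sequence before that start. The Ski window held GGCGC in 7 places, a pair of which (at -220 and -219) overlap as the palindrome GGCGCC, and held no CAGAC. Neither element was in the Inhba window. Among 32817 such windows of all genes, 49.6% held CAGAC and 36.8% held GGCGC, so their presence is common. The palindrome GTCTAGAC (0.213% of all windows), the sterol element TCACNCCAC (1.24%), the E-box CACGTG (7.15%) and the AP-1 element TGANTCA (7.81%) were in none of the 3 windows shown. The looser E-box CANNTG, which includes CACGTG, was in 72.3% of all windows and in the Nox4 window at 2 places. These matches describe letters and do not show binding.

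Of the 9 genes, 8 passed the filter on low counts and were tested. In trSrebf1 fibroblasts 5 were lower (Nox4, Smad7, Skil, Pmepa1 and Ski) and 0 were higher, and Ldlrad4, Inhba and Bhlhe40 did not pass the threshold. Among all tested genes 30.2% were called, 13.0% lower and 17.2% higher. For 6 of the 8 every trSrebf1 library lay below every control library. Of all tested genes 43.4% had groups that did not overlap, 20.2% with trSrebf1 lower and 23.1% with trSrebf1 higher. The median log2 fold change of the 8 was -0.57. In libraries of pooled cells, fewer cells expressing a gene and less of its RNA in each cell cannot be told apart.

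**Figure D1:**
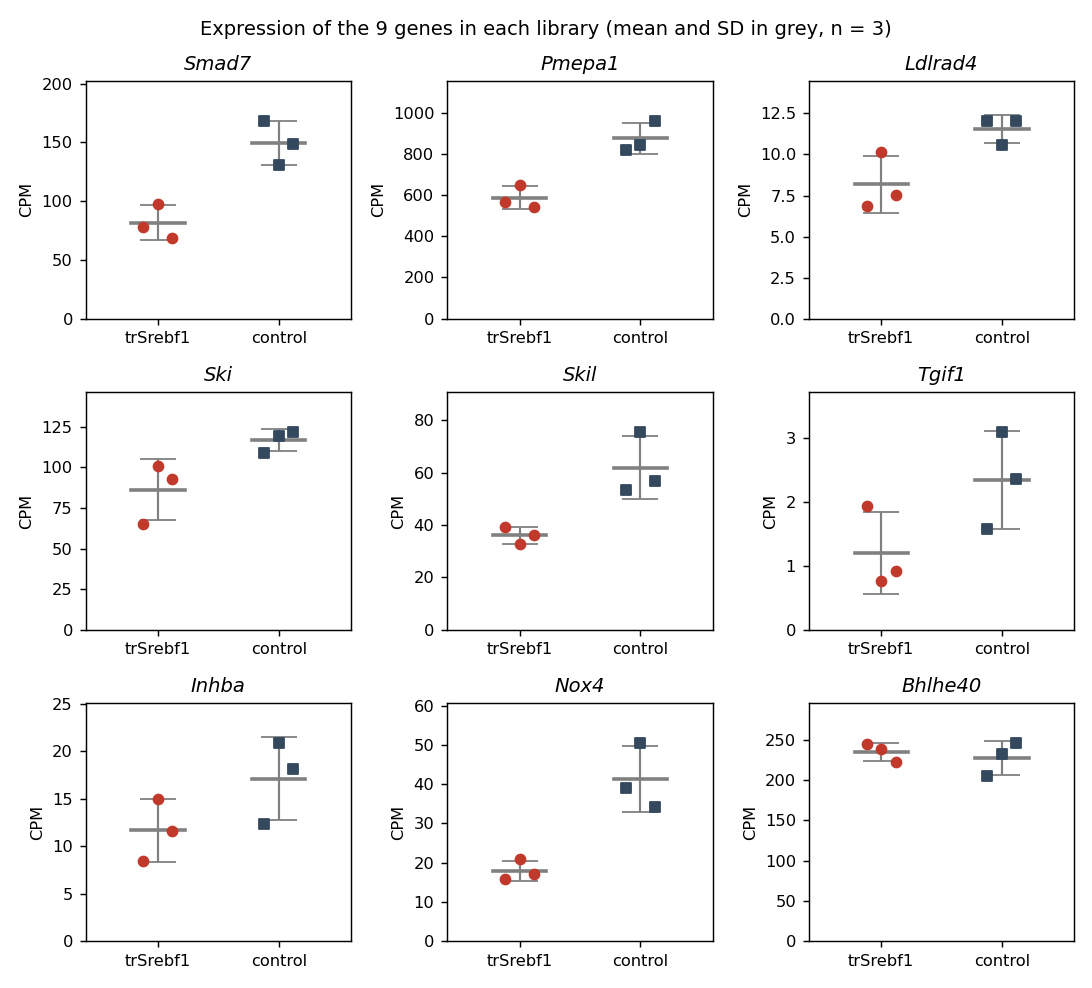
Expression of the 9 genes in CPM (vertical axes, each starting at 0) in the 3 trSrebf1 libraries (red circles) and the 3 control libraries (dark squares), with the group mean and SD in grey. The trSrebf1 points lie below all control points for Smad7, Pmepa1, Ldlrad4, Ski, Skil and Nox4, and the groups overlap for Tgif1, Inhba and Bhlhe40.

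The brakes at the membrane were lower in trSrebf1 cells for Smad7 and Pmepa1. Smad7, the inhibitory SMAD that targets the receptor, lies on chromosome 18. It stood at 78.3, 98.0 and 69.0 CPM in the trSrebf1 libraries, against 169, 131 and 149 CPM in the control libraries. The highest trSrebf1 library was thus below the lowest control library. Its level fell to 54.7% of control, a log2 fold change of -0.87 (SE 0.14, 95% interval -1.17 to -0.57, edgeR adjusted p = 0.000132).

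Pmepa1 (chromosome 2, 173224458 to 173276533, minus strand) encodes a membrane protein that ties up SMAD2 and SMAD3. It had 569, 649 and 542 CPM in trSrebf1 libraries and 819.7, 845 and 962 CPM in control libraries. The groups were well apart, and the spread within each was small, with coefficients of variation of 9.51% in trSrebf1 and 8.68% in control. Counting alone would give 1.99% and 1.69%. The log2 fold change was -0.58 (SE 0.11, edgeR adjusted p = 0.000479), or 67.0% of control.

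Ldlrad4, a relative of Pmepa1 with the same mode of action, had only 32, 40 and 33 counts in trSrebf1 libraries and 46, 41 and 51 in control libraries. These are 6.88, 10.2 and 7.54 CPM in trSrebf1 and 12.1, 10.6 and 12.0 CPM in control. The groups did not overlap, but by little, with trSrebf1 replicate 2 close to control replicate 2. The log2 fold change of -0.50 (SE 0.25, 95% interval -1.04 to 0.03) did not pass the threshold (edgeR adjusted p = 0.155). An exon of Fam210a on the other strand overlaps Ldlrad4 over 1838 bases, outside its last 500 bases, and reads of the pair cannot be told apart unless the counting used strand.

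The nuclear corepressors Skil and Ski were both lower in trSrebf1 cells. Skil (chromosome 3, 31095058 to 31122577, plus strand) encodes SnoN, a SMAD-binding repressor that TGF-beta first degrades and then induces. It stood at 39.4, 32.7 and 36.1 CPM in trSrebf1 libraries and at 53.2, 75.6 and 56.6 CPM in control libraries. No trSrebf1 library reached the lowest control library. The log2 fold change was -0.77 (SE 0.16, edgeR adjusted p = 0.00144), or 58.4% of control.

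Ski (chromosome 4, 155154075 to 155222592, minus strand), the founding member of that family, had 65.2, 101 and 93.0 CPM in trSrebf1 libraries and 109, 119 and 122 CPM in control libraries. Replicate 1 was the low trSrebf1 library, and the other two came near the control level. The log2 fold change was -0.44 (SE 0.15, edgeR adjusted p = 0.0319). This call rested on few libraries. Without trSrebf1 replicate 1 the log2 fold change was -0.26 (adjusted p = 0.180), and it missed the threshold as well when control replicate 2 (-0.43, adjusted p = 0.0852) or control replicate 3 was left out (-0.42, adjusted p = 0.0891) and with the DESeq2 Wald test (-0.43, adjusted p = 0.0660). Over all alternatives its adjusted p lay between 0.0107 and 0.180.

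Tgif1, a homeobox corepressor that binds SMAD2, was near the limit of detection and did not pass the filter. It had 9, 3 and 4 counts in trSrebf1 libraries and 6, 12 and 10 in control libraries, and the groups overlapped. The ratio of the summed counts, scaled by library size, was 0.526 of control (16 against 28 counts, exact Clopper-Pearson 95% interval 0.266 to 1.01, which covers counting error only). A difference was not detectable at this depth. Its relative Tgif2 stood at 4.95, 9.90 and 7.08 CPM in trSrebf1 and 10.8, 12.6 and 14.6 CPM in control. Tgif2 was called lower, with a log2 fold change of -0.81 (SE 0.28, edgeR adjusted p = 0.0381). That call was lost under DESeq2 and when trSrebf1 replicate 1 or 3 or control replicate 2 or 3 was left out. Across all 15 alternatives the adjusted p of Tgif2 lay between 0.0132 and 0.173. Tgif2 shares its last 500 bases with a transcript on the other strand.

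Of the 10 tested partners of these corepressors, Tgif2 was the 1 that was lower and 0 were higher, against 13.0% lower and 17.2% higher among all tested genes. The nuclear receptor corepressor Ncor1, named after its values were seen, had a log2 fold change of 0.03 (SE 0.14), a sign that turned with upper-quartile factors, with library totals and without trSrebf1 replicate 2. The deacetylases Hdac1 and Hdac3 stood at -0.25 (SE 0.17) and -0.37 (SE 0.23), and Ctbp2, part of whose 3' sequence is shared with Fgfr2, at 0.24 (SE 0.20). None of these 4 passed the threshold.

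Among the genes that carry the response onwards, Nox4 was called lower, with the lowest log2 fold change of the 8 tested members. Nox4 (chromosome 7, 87246096 to 87398710, plus strand), the oxidase that TGF-beta induces in myofibroblasts, had 15.7, 20.8 and 17.1 CPM in trSrebf1 libraries, against 39.1, 50.6 and 34.2 CPM in control libraries. The groups were far apart. Its level was 43.3% of control, a log2 fold change of -1.21 (SE 0.19, 95% interval -1.61 to -0.81, edgeR adjusted p = 9.30e-05), at the 4.50th percentile of the fold changes of all tested genes.

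Cyba, the p22phox subunit that NOX4 needs for activity, was lower too. It had 7.10, 6.60 and 4.80 CPM in trSrebf1 libraries and 9.70, 13.2 and 11.6 CPM in control libraries, a log2 fold change of -0.89 (SE 0.27, edgeR adjusted p = 0.0179). The call of Cyba was lost under DESeq2 and without trSrebf1 replicate 3 or control replicate 2. Across all 15 alternatives its adjusted p lay between 0.00970 and 0.0860. Poldip2, which binds p22phox and raises NOX4 activity, did not pass the threshold (log2 fold change 0.22, SE 0.11, edgeR adjusted p = 0.140).

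Duox2, an oxidase known from thyroid and epithelia, was at 0 counts in all control libraries and at 40.9, 24.1 and 18.7 CPM in trSrebf1 libraries. That is at least 112.5-fold higher, taking 3 counts over the control group as the floor.

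Inhba (chromosome 13, 16011851 to 16031621, plus strand), the activin A subunit gene, had 8.39, 15.0 and 11.6 CPM in trSrebf1 libraries and 12.3, 20.9 and 18.2 CPM in control libraries. The groups overlapped, since control replicate 1 lay below trSrebf1 replicate 2. Its log2 fold change was -0.56 (SE 0.26, 95% interval -1.11 to -0.01) and did not pass the threshold (edgeR adjusted p = 0.117). Without control replicate 1 it did (-0.75, adjusted p = 0.0359), and the adjusted p lay between that value and 0.382 in the alternatives.

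Transcripts of genes for activin-binding proteins outside the cell were lower in trSrebf1 cells. Fst, which encodes the activin trap follistatin, had 82, 66 and 74 counts in trSrebf1 libraries and 148, 124 and 96 counts in control libraries, which did not overlap. Its mean was 17.1 ± 0.475 CPM in trSrebf1 and 31.1 ± 8.11 CPM in control (SD, n = 3 each). This was a difference of -0.86 on the log2 scale (SE 0.20, edgeR adjusted p = 0.00349). Its relative Fstl3 stood at -1.15 (SE 0.19, adjusted p = 0.000162), with its last 500 bases shared with Prss57 on the other strand. The type I activin receptor gene Acvr1b fell by 1.03 on the log2 scale (SE 0.24), and Gdf11, a related ligand, rose by 3.19 (SE 0.22). Gdf11 had 53.1, 42.6 and 60.5 CPM in trSrebf1 libraries, against 7.08, 4.64 and 5.43 CPM in control libraries. Of the 7 tested genes on the activin list 1 was higher and 4 were lower, Tgfbr3 among them. Among all tested genes 17.2% were higher and 13.0% lower. Inhbb, another activin subunit gene, averaged 0.972 ± 0.623 CPM in trSrebf1 and 0.261 ± 0.262 CPM in control (SD, n = 3 each) and was not tested.

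Bhlhe40 (chromosome 6, 108660629 to 108666925, plus strand) stood at 245, 239 and 222 CPM in trSrebf1 libraries and at 205, 233 and 247 CPM in control libraries. The groups overlapped throughout. The log2 fold change was 0.04 (SE 0.11, edgeR adjusted p = 0.806), with a 95% interval of -0.19 to 0.27 and a sign that turned under upper-quartile factors (-0.04), library totals (-0.03) and without control replicate 1 (-0.03). An antisense transcript, 0610040F04Rik, shares 61 of its last 500 bases. Its paralog Bhlhe41, a repressor of the same clock loop, rose by 1.35 on the log2 scale (SE 0.21, edgeR adjusted p = 8.73e-05), with 39.1, 42.6 and 32.7 CPM in trSrebf1 libraries and 17.3, 9.80 and 17.5 CPM in control libraries. Bhlhe41 overlaps an unclassified transcript on the other strand over 363 of its last 500 bases.

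Of the 11 tested clock genes, including Bhlhe41, 5 were higher and 2 were lower, against 17.2% higher and 13.0% lower among all tested genes. The clock output factor Tef had a log2 fold change of 0.66 (SE 0.12) and Dbp, whose 3' end overlaps Sphk2 on the other strand, of 1.80 (SE 0.38). Clock, the activator of the loop, fell by 0.93 (SE 0.21). Rora, Cry1 and Per1 were named after their values were seen. Rora and Cry1 were the other genes that were higher, by 0.49 (SE 0.12) and 1.70 (SE 0.47), and Per1 the other that was lower, with a log2 fold change of -0.43 (SE 0.12). The call of Cry1 was lost under DESeq2 (adjusted p = 0.0643) and without control replicate 3 (0.0638), and that of Per1 without control replicate 1 (0.0737).

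**Figure D2:**
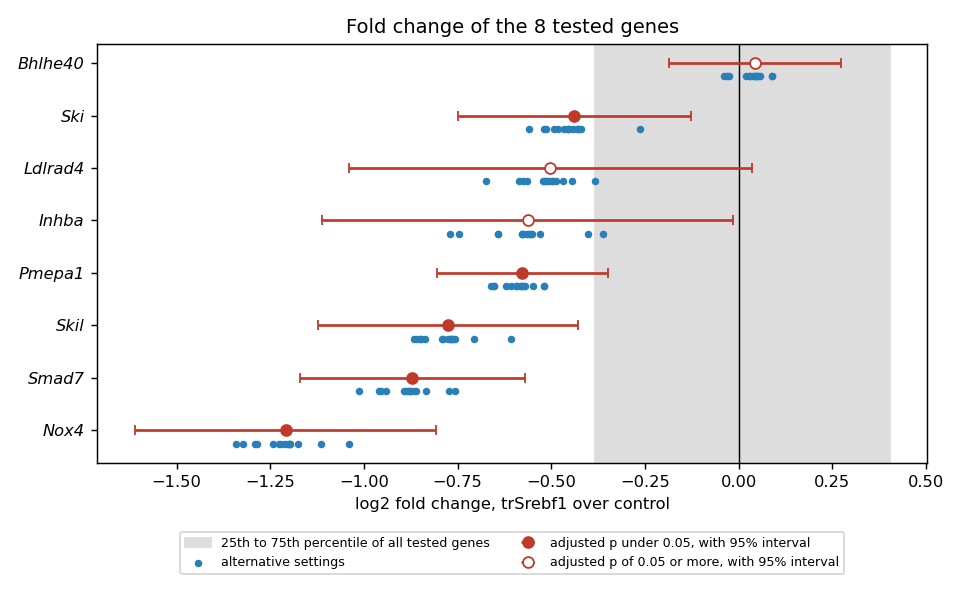
Log2 fold change (trSrebf1 over control, horizontal axis) of the 8 tested genes with its 95% interval (red), filled where the adjusted p was under 0.05, with the values under the alternative settings in blue and the range from the 25th to the 75th percentile of all tested genes (-0.38 to 0.40) in grey. Nox4 is lowest at -1.21, and Bhlhe40, at 0.04, has blue points on both sides of 0 (upper-quartile factors, library totals and without control replicate 1 turn its sign).

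The machinery upstream of these genes did not move in 1 direction. Of 21 tested ligands, receptors, SMADs and their regulators 5 were higher and 4 were lower, with a median log2 fold change of 0.27. The shares among all tested genes were 17.2% higher and 13.0% lower. The ligand Tgfb1 rose by 0.87 on the log2 scale (SE 0.15), with 107, 135 and 99.4 CPM in trSrebf1 libraries, against 59.8, 53.7 and 73.4 CPM in control libraries. Tgfb3 fell by 0.99 (SE 0.13), with 93.3, 93.1 and 106 CPM in trSrebf1 and 155, 202 and 224 CPM in control libraries.

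All 3 TGF-beta receptor genes on the list were lower, against 13.0% of all tested genes. The type II receptor Tgfbr2, which binds the ligand first, had 12.7, 12.2 and 11.9 CPM in trSrebf1 libraries and 33.0, 36.1 and 25.2 CPM in control libraries, a log2 fold change of -1.36 (SE 0.20, edgeR adjusted p = 3.87e-05). The coreceptor Tgfbr3 fell by 1.61 (SE 0.24). The type I receptor Tgfbr1 was at -0.76 (SE 0.27, adjusted p = 0.0455), a call lost in 7 of the 15 alternatives. Across all 15 its adjusted p lay between 0.0239 and 0.162.

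Of 6 tested SMAD genes on that list Smad4 and Smad6 were higher and 0 were lower. Among all tested genes 17.2% were higher and 13.0% lower, so a count over so few genes says little. Smad4, the shared partner of the receptor-activated SMADs, had 225, 266 and 274 CPM in trSrebf1 libraries and 194, 148 and 179 CPM in control libraries, a log2 fold change of 0.55 (SE 0.12, edgeR adjusted p = 0.00202). Smad2 stood at 0.46 (SE 0.27, adjusted p = 0.228) and Smad3 at 0.52 (SE 0.19, adjusted p = 0.0522), and neither passed the threshold. Smad3 passed it without trSrebf1 replicate 3 (adjusted p = 0.0376). Smad6, the other inhibitory SMAD, which acts mainly on BMP signalling, was higher, with 136, 164 and 146 CPM in trSrebf1 and 120.4, 91.1 and 111 CPM in control libraries (log2 fold change 0.47, SE 0.13, adjusted p = 0.00979). The call of Smad6 was lost without control replicate 2 (0.36, adjusted p = 0.0580).

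The ubiquitin ligases that work with SMAD7 and with SKI and SKIL gave no call for Smurf1 (log2 fold change -0.09, SE 0.11), Smurf2 (0.27, SE 0.15) and Rnf111, which encodes Arkadia (0.39, SE 0.25). Nedd4l and Ppm1a, named after their values were seen, were the remaining 2 genes on the list that were higher. The ligase gene Nedd4l had a log2 fold change of 1.45 (SE 0.47, edgeR adjusted p = 0.0297), lost in 5 alternatives, and the SMAD phosphatase gene Ppm1a one of 0.46 (SE 0.11, adjusted p = 0.00372).

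**Figure D3:**
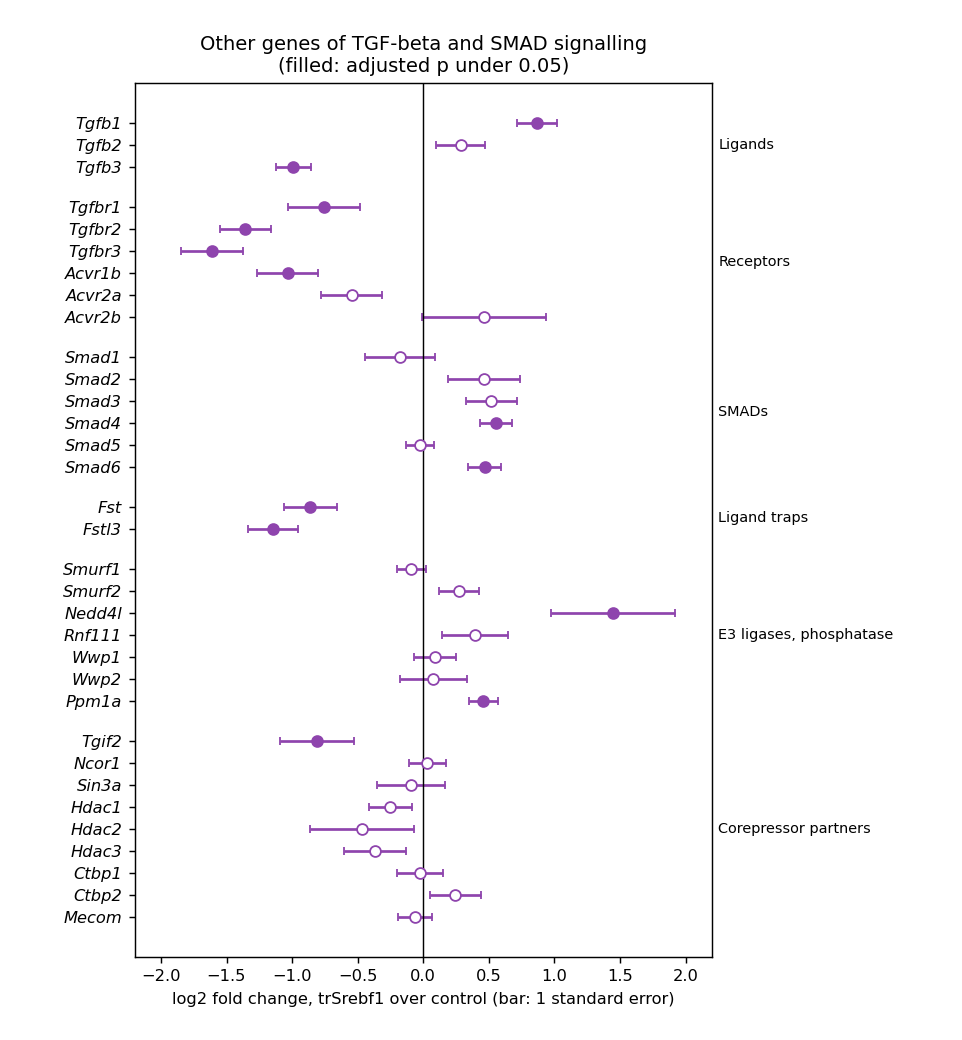
Log2 fold change (trSrebf1 over control, horizontal axis) with 1 standard error for tested genes of TGF-beta, activin and SMAD signalling, grouped by role, filled where the adjusted p was under 0.05. The TGF-beta receptors and both ligand traps lie left of 0, whereas Smad4 (0.55), Smad6 (0.47) and Tgfb1 (0.87) lie right of it.

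Ratios of raw counts within a library do not depend on the scaling of the libraries. The ratio of Smad7 to Smad6, the 2 inhibitory SMADs, was 0.576, 0.596 and 0.472 in trSrebf1 libraries and 1.40, 1.44 and 1.33 in control libraries. Every trSrebf1 ratio was below every control ratio. The ratio compares libraries, not the levels of the 2 genes, since tags of different genes may be captured unequally. The mean log2 ratio differed by -1.35 (exact two-sided permutation p = 0.1, the smallest that 3 against 3 libraries allow, and 0.2 adjusted over the 4 ratios computed). Smad7 and Smad6 each already set the groups apart, in opposite directions. The separation of their ratio and its p follow from that and are no further evidence. The ratio of Bhlhe40 to Bhlhe41 was 6.25, 5.60 and 6.81 in trSrebf1 and 11.8, 23.8 and 14.1 in control libraries, a difference of -1.35 on the log2 scale with the same exact p of 0.1 and adjusted p of 0.2. Bhlhe41 by itself already set the groups apart, so this ratio is no separate test either.

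For the other pairs the groups overlapped. Skil to Ski ratios were 0.604, 0.325 and 0.388 in trSrebf1 and 0.488, 0.634 and 0.464 in control libraries (log2 difference -0.31, exact permutation p = 0.4, adjusted 0.533). Without trSrebf1 replicate 1 that difference was -0.56 and without replicate 2 it was -0.11, and without control replicate 2 it was -0.17. Pmepa1 to Ldlrad4 ratios were 82.6, 64.0 and 71.9 in trSrebf1 and 68.0, 79.9 and 80.0 in control libraries (log2 difference -0.06, exact permutation p = 0.7). The 4 pairs were chosen after the values were seen.

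**Figure D4:**
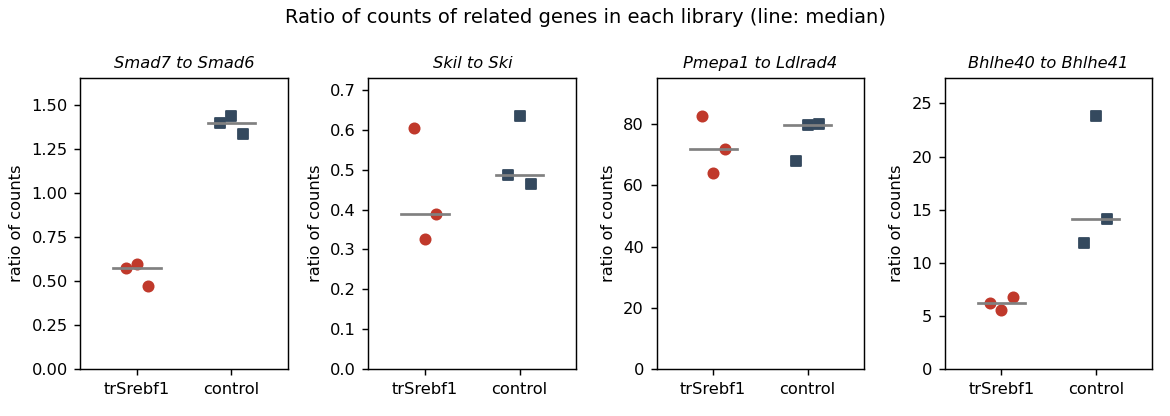
Ratio of raw counts (vertical axes, each starting at 0) for 4 pairs of related genes in the 3 trSrebf1 libraries (red circles) and the 3 control libraries (dark squares), with the group median as a line. The groups are apart for Smad7 to Smad6 (0.472 to 0.596 in trSrebf1, 1.33 to 1.44 in control) and for Bhlhe40 to Bhlhe41, and overlap for the other two.

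Other genes that TGF-beta is known to induce were lower more often than higher. Of 37 tested genes on that list 17 were lower and 6 were higher, with a median log2 fold change of -0.35, against 13.0% lower and 17.2% higher among all tested genes. Ctgf, a matricellular protein gene, had a log2 fold change of -0.90 (SE 0.16), and the contractile genes Acta2 and Tagln had -1.89 (SE 0.16) and -1.28 (SE 0.12). Tagln shares 3' bases with Pcsk7 on the other strand. The cell cycle inhibitor Cdkn1a, at 1.48 (SE 0.11), and the matrix protein gene Tgfbi, at 2.71 (SE 0.26), were higher.

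The 3 genes with the profile most like that of Nox4, the member with the smallest p, were Tmem127, Ifitm2 and Fbn2. Their Pearson r with Nox4 over the 6 libraries (log2 of CPM + 1) was 0.995, 0.994 and 0.991, and 105 of 3779 genes compared had an r over 0.95. These libraries share the group difference, so the r describes that difference as well as the spread within groups. Fbn2, which encodes an elastic fibre protein, had 27.3, 32.2 and 28.8 CPM in trSrebf1 and 53.0, 58.3 and 50.2 CPM in control libraries. Ifitm2 has near-identical copies and its value is uncertain. Tmem127 was not called (log2 fold change -0.27, edgeR adjusted p = 0.0527) but gained a call in 5 of the 15 alternatives. Across all 15 its adjusted p lay between 0.0114 and 0.167.

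Immediate early genes respond within minutes to tissue digestion and to growth factors. On the list of these genes 21 of 24 tested were lower and 0 higher (median log2 fold change -0.81). The shares among all tested genes were 13.0% lower and 17.2% higher. The list summed to 25569 to 30861.5 CPM in trSrebf1 libraries and 37872 to 45772 CPM in control libraries. The log2 fold changes of Fosb and Klf4 were -0.99 (SE 0.11) and -1.08 (SE 0.11), and those of Btg2 and Klf2 -1.41 (SE 0.16) and -1.26 (SE 0.15). Junb is on this list and on the list of TGF-beta induced genes. The part of this response in the results was not tested.

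Marker sums of other cell types differed, from near 0 for lymphocytes to 139 CPM or more for pericytes and smooth muscle. The latter sum, over 10 genes, was above the level of some single members. Macrophage markers summed to 4.30 to 18.0 CPM in trSrebf1 libraries and 8.96 to 48.0 CPM in control libraries, most of it from C1qa, with Cd14 next. Epithelial markers summed to 20.1 to 51.3 CPM in trSrebf1 and 32.5 to 49.5 CPM in control, led by Cldn18 and Krt19, of which Krt19 was lower (log2 fold change -1.16, SE 0.38), a call lost in 6 of 15 alternatives. Epcam had at most 1 count in any library. Of 9 listed lymphocyte markers only Cd3d and Ms4a1 had a row, and they summed to at most 1.37 CPM in any library. Endothelial markers summed to 10.5 to 13.3 CPM in trSrebf1 and 2.59 to 4.39 CPM in control. Egfl7 and Esam led the trSrebf1 sums and both were higher (Esam lost its call in 3 alternatives), while Kdr had 0.430, 0.761 and 2.06 CPM in trSrebf1 and 1.05, 1.55 and 0.708 CPM in control libraries, and the defining genes Pecam1 and Cdh5 were at 0 in every trSrebf1 library. Pericyte and smooth muscle markers summed to 221 to 257 CPM in trSrebf1 and 139 to 153 CPM in control. Much of the trSrebf1 sum came from Cspg4, at 119, 141 and 102 CPM, against 14.2, 11.9 and 23.1 CPM in control. On that list Cspg4 and Des were the 2 of 8 tested genes that were higher, and 5 were lower. Des lost its call in 2 of 15 alternatives. The median log2 fold change of the list was -1.13. Among all tested genes 17.2% were higher and 13.0% lower. Rgs5, a defining pericyte gene, had no more than 1 count in any library. The part of these cells in the results was not tested.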

How the data were processed

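The authors deposited, for each of 6 libraries, raw whole-number counts per gene symbol, with 19865 symbols and 0 rows without a gene name. Bowtie2 2.2.5 and the build mm10 are named per the submitters' processing notes. Neither a counting program nor an annotation or strand setting is given in the sources used here, so genes with overlapping or near-identical 3' ends are uncertain. Such overlaps were looked up in GENCODE M21 (GRCm38) over the last 500 bases of coding transcripts, with matches of at least 50 bases at 95% identity. No member had such a match to another transcript on the same strand. Bhlhe40 shares 61 of its last 500 bases with an antisense transcript, as given above.

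Counts were tested with edgeR 4.0.16 (R 4.3.3): TMM factors, filterByExpr (minimum count 10, minimum total 15), robust quasi-likelihood fit with the group as the only term, and Benjamini-Hochberg adjustment over all 10194 tested genes at 0.05, two-sided. The prior count was 0.125. The standard error is the log2 fold change divided by the square root of F. CPM used TMM-scaled library sizes. Tags are counted once per transcript, so values were not divided by length. Intervals on counts cover counting error only, since tags carry no molecular identifiers. DESeq2 1.42.0 and limma 3.58.1 served as alternatives.

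The members, gene lists and tests were chosen with earlier results of these data known. Named genes were the 9 members, Srebf1, close relatives and partners set by name, up to 4 genes with the smallest p in each list, and the 2 most abundant markers of each other cell type. Within a group, chi-square over its degrees of freedom was 4.91 to 9.23 for pairs of libraries, above the sampling noise, so no library was counted as a copy of another. Comparison of the member proteins was not analysed here, and some genes that the rule named are not reported here.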

Additional observations from a re-analysis of the deposited data

How the results depend on the processing

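The calls of Smad7, Pmepa1, Skil and Nox4 were kept in all 15 alternatives, with log2 fold changes of -1.01 to -0.76, -0.66 to -0.52, -0.87 to -0.61 and -1.34 to -1.04. Ldlrad4 passed the threshold in none of them (-0.67 to -0.38). Ski lost its call with the DESeq2 Wald test (-0.43), and ranged from -0.56 to -0.26 when 1 library was left out. Inhba ranged from -0.77 to -0.36 in the same way and gained a call without control replicate 1. Bhlhe40 turned its sign with upper-quartile factors (-0.040) and library totals (-0.030), and ranged from -0.025 to 0.089 with 1 library left out. The cause was not tested. The log2 difference of the Pmepa1 to Ldlrad4 ratio ranged from -0.16 to 0.026, positive without trSrebf1 replicate 2, an alternative added after the data were seen. Tgif1 entered the test in 6 alternatives and was called in 0 of them. Over all genes 1535 to 1977 were higher and 992 to 1649 lower, and 4 to 6 members were lower. Of 956 values of 64 other genes examined 904 kept their direction and their side of the threshold, 42 lost a call, 6 gained one and 4 changed sign without a call (Ncor1 at -0.053 with upper-quartile factors, at -0.041 with library totals and between -0.011 and 0.069 with 1 library left out, and Cldn18 between -0.78 and 0.21 in the same way).

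Same-numbered libraries of the groups did not deviate together (correlations of 0.00, -0.12 and -0.06 over genes). The labels state no pairing, and so few correlations cannot exclude one, so whether the numbers pair the libraries stays unknown. The replicate number was used as a block only in an alternative. With the replicate block 1646 genes were higher and 1174 lower and 5 members were lower, while Tgfbr1 lost its call (adjusted p = 0.0618). Depth limits Tgif1, Ldlrad4 and Inhba most, with counting errors of 43.3%, 16.9% and 14.2% of a mean trSrebf1 library count.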

Other observations

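Within the trSrebf1 group the members did not share 1 order of libraries. Replicate 2 was the highest of the 3 for 6 of the 9 members, and the lowest for Skil and Tgif1. Among control libraries replicate 1 was the lowest for 6 of the 9 members and the highest for Smad7 and Ldlrad4. Summed over the 9 members the level was 1029, 1166 and 999.96 CPM in trSrebf1 libraries and 1420.4, 1489 and 1603 CPM in control libraries. Without Pmepa1 the sums were 460.5, 517 and 458 CPM in trSrebf1 and 601, 644 and 640.5 CPM in control libraries.

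Genes induced by low oxygen, a signal that also raises Bhlhe40 in many cells, did not move together. Of 9 tested genes 2 were higher and 3 lower, against 17.2% higher and 13.0% lower among all tested genes. The angiogenic factor gene Vegfa rose by 1.56 on the log2 scale (SE 0.14). The glucose transporter gene Slc2a1 had a log2 fold change of -0.71 (SE 0.11), and the peptide hormone gene Adm, with a mean of 0.571 ± 0.605 CPM in trSrebf1 and 5.53 ± 2.98 CPM in control libraries (SD, n = 3 each), of -3.27 (SE 0.63). Ldha, which has near-identical copies, stood at -0.66 (SE 0.14).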
